A study of Mus musculus with 20 samples.

Results

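The genes described here encode matricellular and provisional matrix proteins: Tnc, Postn, Fn1, Spp1, Thbs1, Thbs2, Sparc, Mgp, Vcan and Eln. They were chosen by symbol, through the probe sets that the platform annotation assigns to exactly 1 of these symbols. Where a gene had several, the probe set with the highest mean signal gave its value and the others served as a check. Of the 10 genes, 9 had such a probe set, among 18194 genes with one in all. Spp1, which encodes osteopontin, was not analysed here. All 9 had a mean signal of at least 300 and were among the 13595 genes tested.

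The study profiled RNA from mouse flank tissue on 20 arrays of the Affymetrix type Mouse Genome 430 2.0. The 5 control arrays held flank tissue of day 0, and tissue of the Ad-VEGF-A164 model was taken at 3 later times, with 4 arrays of day 5, 5 of day 20 and 5 of day 60. The comparisons address how the tissue differs from its starting state at each time after this adenoviral vector for an isoform of vascular endothelial growth factor A was given, as far as the labels state it. One further array, titled as day 5 A but labelled as a day 0 control in its other fields, entered no comparison. The labels give no strain, sex, age, vector dose or site of delivery, name no empty vector, and do not say whether arrays of a group came from separate animals. The p-values therefore rest on sample-to-sample spread that may be only technical, and a change against day 0 cannot be told apart from an effect of delivery or of virus. Arrays are named by the letter of their titles.

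Matricellular proteins are secreted into the extracellular matrix but do not build its fibres; they change how cells attach, migrate and respond to growth factors. Tenascin-C, periostin, the thrombospondins and SPARC belong to this class, and tenascin-C is low in most resting adult tissue. In the day 0 controls here the mean signals of Postn, Sparc and Thbs2 were 31596, 21949 and 15142. Those of Tnc and Thbs1 were 1871 and 525. Fibronectin and the large proteoglycan versican form, with fibrin and hyaluronan, the provisional matrix that fills a wound or surrounds leaky new vessels. Elastin is the protein of elastic fibres in artery walls and skin, and matrix Gla protein keeps artery walls free of mineral and binds bone morphogenetic proteins.

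On day 5, 7 of the 9 genes were higher than in the controls (Tnc, Postn, Fn1, Thbs1, Sparc, Mgp and Vcan) against 16.8% of all genes tested, and Eln alone was lower, against 17.5%. On day 20, 8 of the 9 were higher, Eln now among them, against 15.6% of all genes, and none was lower, against 14.5%. By day 60 only Mgp passed the test as higher, against 0.368% of all genes, and none as lower, against 0.765%. Passing means an adjusted p under 0.05 in limma with Benjamini-Hochberg adjustment over all genes tested, on log2(signal + 100), a scale that understates the change of low genes. The median log2 change of the 9 genes was 1.36 on day 5, then 1.63 on day 20 and 0.37 on day 60, while that of all genes tested was -0.07, -0.06 and 0.01. Thbs2 did not pass on any day by its main probe set. Day 20 arrays B and C stood above the other 3 in most of these genes, and 7 of the 9 were higher on day 20 without both. The calls of Eln on day 5 and Mgp on day 60 did not pass without some single arrays, given with those genes. The 3 comparisons share the control arrays. These genes, and the gene lists further below, were chosen with earlier results of these data known. Their counts beside the shares over all genes are therefore not independent support. The values are of whole tissue, in which fewer cells of a type and less RNA per cell cannot be told apart.

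**Figure D1:**
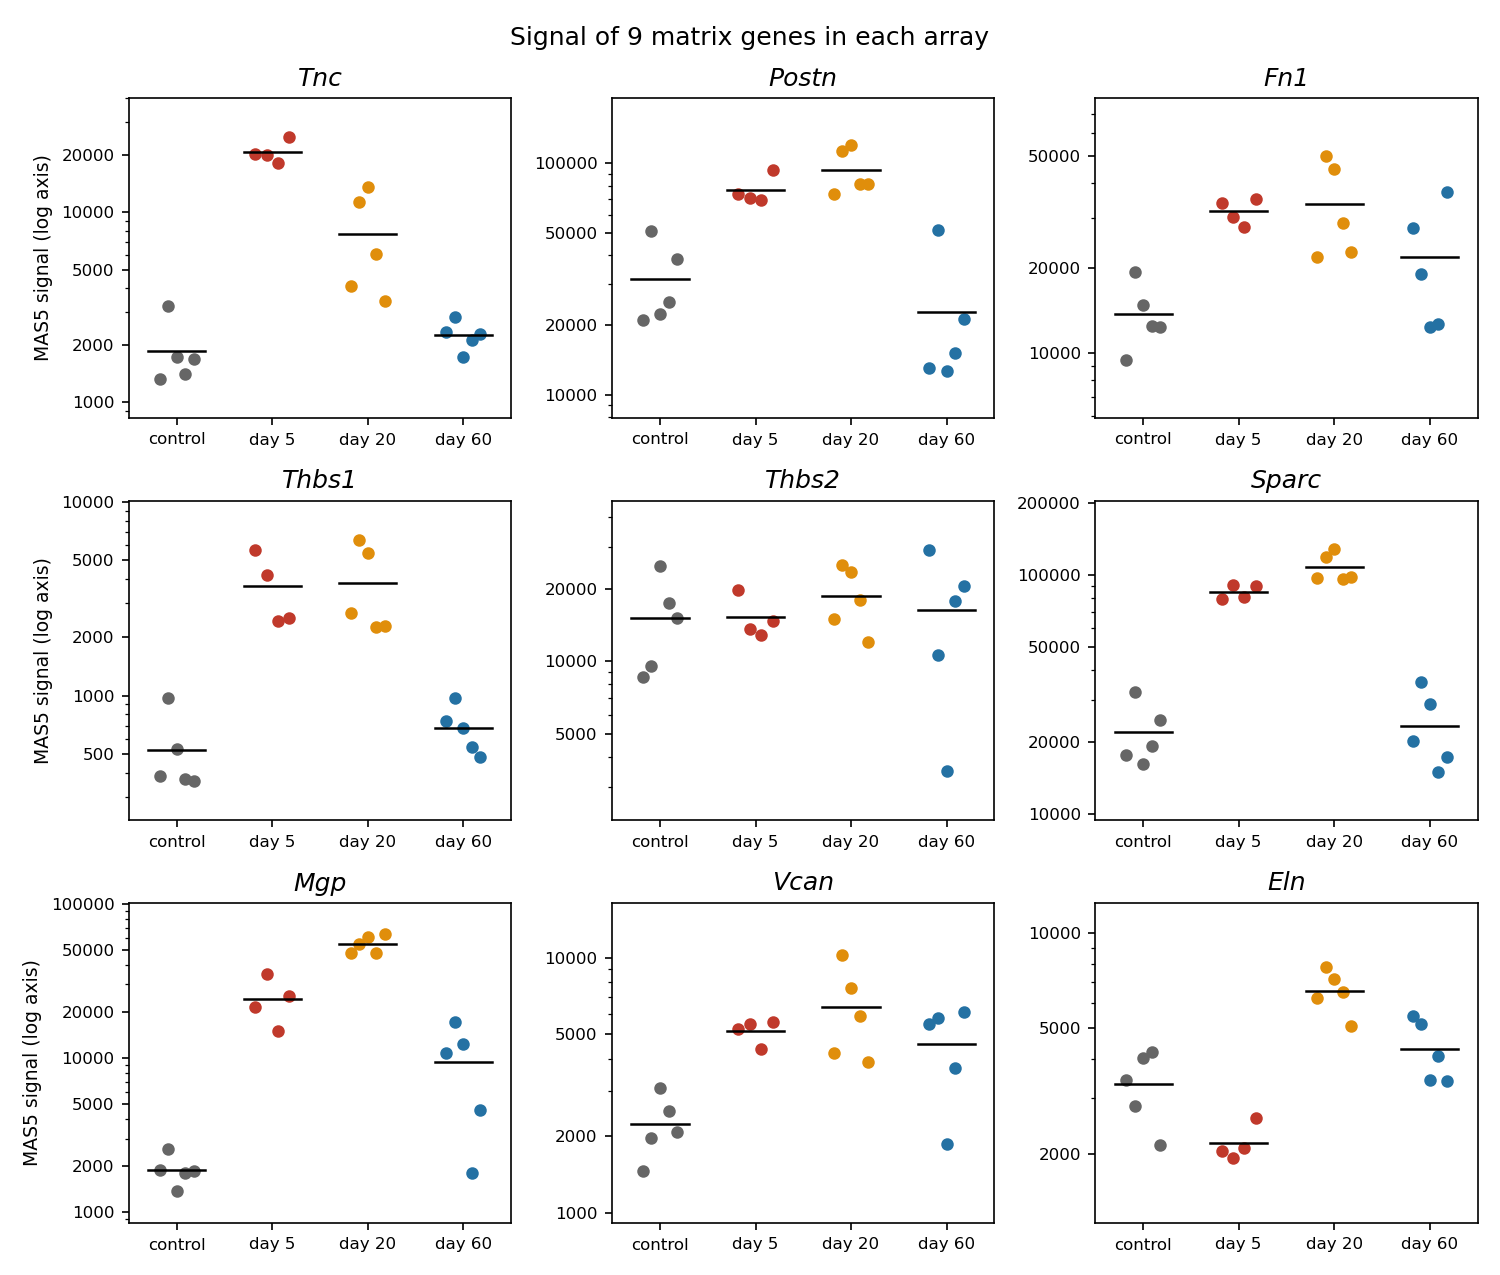
MAS5 signal (log axis) of 9 matrix genes in each control, day 5, day 20 and day 60 array, with 1 point per array and a line at the group mean. The 4 day 5 arrays of Tnc sit between 18251 and 25035, above all others, and the 5 day 20 arrays of Mgp lie above every other array of that gene.

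Between the days after the vector, the day 20 arrays differed from the day 5 arrays in 2 genes: Eln was higher, against 3.05% of all genes tested, and Tnc was lower, against 2.25%. From day 20 to day 60, 6 of the 9 were lower (Tnc, Postn, Thbs1, Sparc, Mgp and Eln), against 11.2% of all genes, and none was higher, against 11.0%. From day 5 to day 60, 5 were lower (Tnc, Postn, Thbs1, Sparc and Mgp), against 12.2% of all genes, and Eln was higher, against 12.2%.

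Promoter sequence was at hand for 6 of the 10 genes, in 9 windows of 300 bases around a RefSeq transcription start in the build GRCm38.p6, each with 250 bases before the start. The stretches of 150 bases before the start are shown for Tnc and Postn, the early and the sustained riser among the cell-matrix glycoproteins, for Vcan, which rose on the same days, and for Thbs2, which did not pass by its main probe set. Capitals mark a TATAAA box within 50 bases before the start, or the CCAAT motif, which reads ATTGG on the other strand. The Tnc stretch lies at chr4:64046937-64047086 on the minus strand and the Postn stretch, before the second of its 2 starts, at chr3:54360957-54361106 on the plus strand. The Vcan stretch lies at chr13:89742513-89742662 and the Thbs2 stretch at chr17:14694263-14694412, both on the minus strand.
Tnc: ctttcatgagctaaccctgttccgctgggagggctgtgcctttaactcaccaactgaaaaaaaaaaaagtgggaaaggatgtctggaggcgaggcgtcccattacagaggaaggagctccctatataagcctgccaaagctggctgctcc
Postn: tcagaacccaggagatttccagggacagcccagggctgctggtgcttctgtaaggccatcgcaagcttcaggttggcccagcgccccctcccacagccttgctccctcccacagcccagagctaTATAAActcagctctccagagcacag
Vcan: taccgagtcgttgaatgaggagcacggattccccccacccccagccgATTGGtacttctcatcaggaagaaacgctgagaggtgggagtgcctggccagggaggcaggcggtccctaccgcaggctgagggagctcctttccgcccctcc
Thbs2: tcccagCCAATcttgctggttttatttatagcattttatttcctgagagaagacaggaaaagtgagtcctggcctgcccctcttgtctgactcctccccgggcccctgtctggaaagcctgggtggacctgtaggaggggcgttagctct
The TATAAA box of Postn lies 26 to 21 bases before its start; 1 of the 9 windows held one, and 2.63% of all 32851 windows in the table did. CCAAT, on either strand, stood in 4 of the 9 windows and in 37.4% of all. Neither the AP-1 motif TGANTCA, present in 7.81% of all windows on either strand, nor the CArG box, present in 1.63%, occurred in the 9. The Tnc stretch holds none of these 4 motifs. A match, or its absence, describes only the letters in this window.

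Tnc, which encodes the anti-adhesive glycoprotein tenascin-C, had the sharpest early peak. Its signals were 1325, 3198, 1723, 1414 and 1695 in control arrays A to E and 20357, 20052, 18251 and 25035 in day 5 arrays B to E. On day 20 they were 4113, 11348, 13536, 6022 and 3406, and on day 60 2335, 2813, 1738, 2120.3 and 2279.6. Day 5 lay above all other arrays, day 20 spread widely but stayed above all controls, and day 60 overlapped the controls. The mean rose from 1871 ± 762 (SD, n = 5) to 20924 ± 2894 (n = 4), 11.1-fold with a log2 change of 3.48 ± 0.32 (SE; limma adjusted p = 2.67e-07), the 25th largest rise of all genes tested. On day 20 the rise was 3.60-fold (log2 1.85 ± 0.31, adjusted p = 0.000151), and Tnc fell by 1.63 on the log2 scale from day 5 to day 20 (adjusted p = 0.00587). It fell by a further 1.54 from day 20 to day 60 (adjusted p = 0.00126), where its change against control was 0.31 ± 0.31 (adjusted p = 0.642). The order of the levels was therefore day 5, day 20, then day 60 and control, the last 2 not differing beyond their spread. A second probe set of Tnc, 1456344_at, gave a log2 change of 1.98 on day 5 (adjusted p = 0.000814) and 0.93 on day 20, which did not pass (adjusted p = 0.0727). By that probe set neither the difference from day 5 to day 20 (-1.05, adjusted p = 0.142) nor that from day 20 to day 60 (-0.97, adjusted p = 0.0760) passed.

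Postn encodes periostin, a matricellular protein of fibroblasts that binds integrins and collagen. The control signals were 21002, 50853, 22305, 25119 and 38699, and those of day 5 were 73571, 71166, 69720.5 and 93911. Day 20 gave 73838, 112884, 120032, 81866 and 81850.2, and day 60 gave 13068, 51725, 12676, 15104 and 21183. Every day 5 and day 20 array exceeded every control, while 3 of the 5 day 60 arrays lay below every control, array E lay next to the lowest control and array B above the highest. The rise was 2.57-fold on day 5 (log2 1.36 ± 0.34, limma adjusted p = 0.00396) and 3.10-fold on day 20 (1.63 ± 0.32, adjusted p = 0.000650). On day 60 the log2 change was -0.61 ± 0.32 and did not pass (adjusted p = 0.355). The fall from day 20 to day 60 was 4.74-fold (adjusted p = 4.31e-05), so the order was day 20 and day 5, which did not differ beyond their spread (adjusted p = 0.708), then control and day 60.

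Sparc, which encodes a collagen-binding protein also called osteonectin, was likewise high on day 5 and day 20, with less spread. Its signals were 17574, 32204, 16162, 19159.7 and 24645 in the controls and 78959.9, 90429.6, 80763 and 89256 on day 5. They were 96526, 118915, 127561, 96193 and 97993 on day 20 and 20140.5, 35760.5, 28691, 15037 and 17258 on day 60. The day 5 and day 20 arrays lay above all controls, and the day 60 arrays covered the control range. Every day 20 array exceeded every day 5 array, though the difference of 0.33 ± 0.22 did not pass (limma adjusted p = 0.447). The rise was 3.97-fold on day 5 (log2 1.99 ± 0.22, limma adjusted p = 2.08e-06) and 5.00-fold on day 20 (2.32 ± 0.21, adjusted p = 1.92e-07). Day 60 differed from control by 0.06 ± 0.21 (adjusted p = 0.912), after a fall of 4.79-fold from day 20 (adjusted p = 3.88e-07). A second probe set, 1448392_at, gave log2 changes of 1.90, 2.17 and 0.27 for the 3 days. The third, 1458204_at, with a mean signal of 553, gave -0.10, -0.27 and -0.04, none of which passed.

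Thrombospondin-1 and thrombospondin-2, products of Thbs1 and Thbs2, are large trimeric glycoproteins known as inhibitors of angiogenesis, and thrombospondin-1 also activates latent TGF-beta. Thbs1 signals were 384, 978, 529.8, 372 and 362 in the controls, 5634, 4188, 2428 and 2517 on day 5, 2673, 6373, 5432, 2265 and 2289 on day 20 and 735, 978, 679, 546 and 481 on day 60. The 9 arrays of day 5 and day 20 lay at 2265 or more, and all controls and day 60 arrays at 978 or less. The rises were 6.05-fold on day 5 (log2 2.60 ± 0.34, limma adjusted p = 1.02e-05) and 6.01-fold on day 20 (2.59 ± 0.32, adjusted p = 5.43e-06), a difference between the days of -0.01 ± 0.34. The change on day 60 was 0.37 ± 0.32 and did not pass (adjusted p = 0.580). Its second probe set, 1450377_at, rose by 1.01 and 0.95 on these days (adjusted p = 0.00507 and 0.00617), and its day 60 value of -0.11 did not pass.

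Thbs2 gave different answers by probe set. Its brightest, 1447862_x_at, read 8604, 9539, 24957, 17497 and 15113 in the controls, 19714, 13560.2, 12828 and 14744 on day 5, 15042, 25225, 23490.1, 18022 and 12005 on day 20 and 29161, 10569, 3479, 17738 and 20485 on day 60. These groups overlapped throughout, and the log2 changes of 0.10 ± 0.44, 0.36 ± 0.42 and -0.09 ± 0.42 did not pass (limma adjusted p = 0.891, 0.544 and 0.938). A second probe set, 1450663_at, gave 0.25, 0.29 and 0.08, none of which passed. The third, 1422571_at, read 1174, 2008, 2838, 2302 and 2214 in the controls and 12524, 5946, 5617 and 6640.4 on day 5. It read 3223, 7512, 7855, 4925 and 3519.9 on day 20 and 5002, 2502, 944, 3403 and 5101 on day 60. All its day 5 and day 20 arrays exceeded all controls, while day 60 overlapped them. In a fit over all 23113 probe sets tested it rose 3.46-fold on day 5 (log2 1.79 ± 0.40, adjusted p = 0.00203) and 2.42-fold on day 20 (1.28 ± 0.38, adjusted p = 0.0165), and it fell by 1.28 from day 5 to day 60 (adjusted p = 0.0262).

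The disagreement was tested within arrays, as the log2 signal of 1422571_at minus that of the main Thbs2 probe set. This difference was -2.73 ± 0.33 (SD, n = 5) in the controls, -1.04 ± 0.26 (n = 4) on day 5, -1.82 ± 0.23 on day 20 and -2.13 ± 0.30 on day 60. It was larger than in the controls by 1.69 on day 5 and by 0.91 on day 20, each with p = 0.00794 in a two-sided exact permutation test, the smallest that these group sizes allow (0.0317 after Benjamini-Hochberg adjustment over 12 such tests). On day 60 it was larger by 0.60 (exact p = 0.0238, adjusted 0.0571). In these arrays the 2 probe sets of Thbs2 changed unequally on day 5 and day 20. The pair was chosen after the same arrays had shown the disagreement, so the p-values are not independent support for it. Where each probe set lies in the transcript is not given in the sources used here. The 3 prime to 5 prime signal ratio of Actb, a sign of RNA quality, also differed between the groups. Its mean was 7.10 in the controls, 4.82 on day 5, 4.48 on day 20 and 8.82 on day 60. The part of RNA quality in the Thbs2 probe set difference was not tested.

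**Figure D2:**
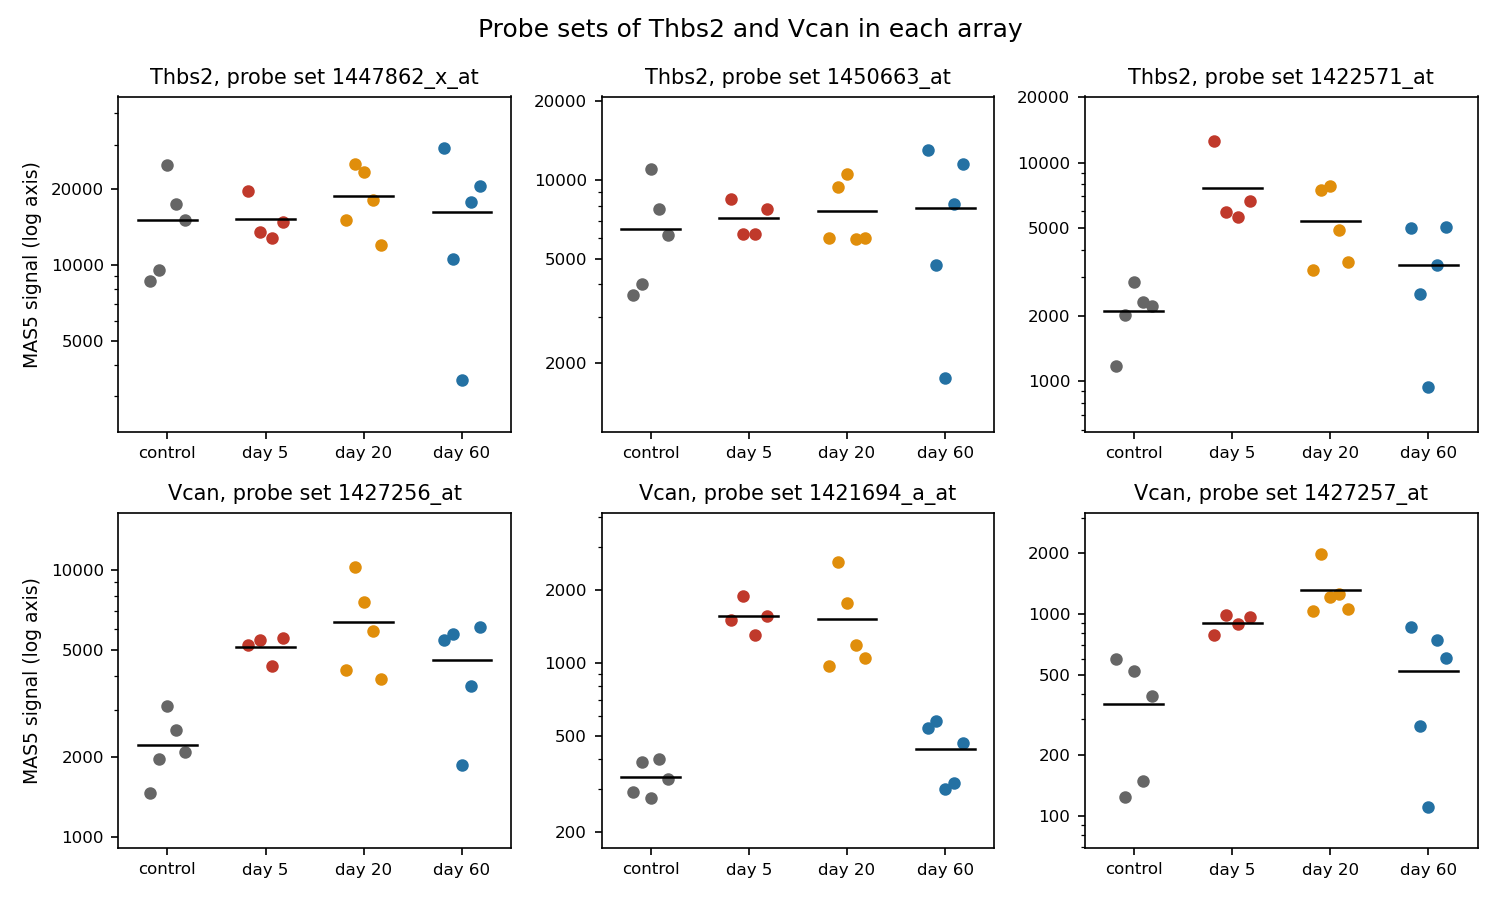
MAS5 signal (log axis) of 3 probe sets of Thbs2 (upper row) and 3 of Vcan (lower row) in each array, with a line at each group mean. Only the third Thbs2 probe set separates day 5 and day 20 from the controls, and the day 60 points of Vcan overlap those of day 20 in the first probe set but lie below all of them in the other 2.

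Fn1, which encodes fibronectin, the adhesive protein of the provisional matrix, read 9425, 19435, 14825, 12451 and 12315 in the controls and 34093, 30378, 27835 and 35163 on day 5. It read 21836, 49981, 44778, 28855 and 22749 on day 20 and 27774, 19082, 12359.5, 12668 and 37116 on day 60. Day 5 and day 20 lay above all controls, while day 60 ran from within the control range to above it. The rises were 2.37-fold on both days (log2 1.25 ± 0.31, limma adjusted p = 0.00396, and 1.25 ± 0.29, adjusted p = 0.00297). The day 20 rise rested in part on arrays B and C: without both, the log2 change of Fn1 was 0.86 and the adjusted p 0.0526. On day 60 the change was 0.57 ± 0.29 (adjusted p = 0.344), and the difference from day 20 was -0.67 ± 0.29 (adjusted p = 0.104). Without day 60 array E, the highest of its group, Fn1 was lower on day 60 than on day 20 by -0.90 (adjusted p = 0.0241) and than on day 5 by -0.90 (adjusted p = 0.0294). The second probe set, 1437218_at, gave log2 changes of 0.94, 0.81 and 0.33, of which the first 2 passed.

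Vcan encodes versican, the hyaluronan-binding proteoglycan of the provisional matrix. Its main probe set, 1427256_at, read 1458, 1960.1, 3093, 2513 and 2075 in the controls, 5230.4, 5487, 4378 and 5576 on day 5, 4236, 10234, 7614, 5916 and 3899 on day 20 and 5490.3, 5781, 1862, 3691 and 6106 on day 60. Day 5 and day 20 lay above all controls, and so did 4 of the 5 day 60 arrays, array C being the exception. The rises were 2.33-fold on day 5 (log2 1.22 ± 0.31, limma adjusted p = 0.00538) and 2.70-fold on day 20 (1.43 ± 0.30, adjusted p = 0.00112). The day 60 change was 0.94 ± 0.30 and did not pass (adjusted p = 0.112). Without day 60 array C, it was 1.23 for Vcan and passed (adjusted p = 0.0251).

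The other 2 Vcan probe sets tested were both lower on day 60 than on day 20. The probe set 1421694_a_at averaged 337 ± 56 in the controls, 1559.5 ± 241 on day 5, 1515 ± 684 on day 20 and 439.8 ± 125 on day 60. It fell by 1.52 on the log2 scale from day 20 to day 60 (limma adjusted p = 7.18e-05), and 1427257_at fell by 1.35 (adjusted p = 0.0139), against -0.49 ± 0.30 for the main probe set (adjusted p = 0.255). Within arrays, 1421694_a_at minus the main probe set was -2.01 ± 0.15 on day 20 and -3.04 ± 0.44 on day 60 (SD, n = 5), lower by -1.03 with an exact permutation p of 0.00794 (0.0317 adjusted). It was higher on day 5 than in the controls by 0.70 (exact p = 0.0159, adjusted 0.0476), and its difference of -0.66 on day 60 against control did not pass (adjusted 0.0952). For 1427257_at minus the main probe set no comparison passed after adjustment: the difference was -0.86 on day 60 against day 20 (exact p = 0.0397, adjusted 0.0794) and -0.55 on day 60 against control (adjusted 0.381). These Vcan pairs were also chosen after their values had been seen. The part of RNA quality, by the Actb ratio, in the Vcan probe set differences was not tested either. The remaining 5 Vcan probe sets had mean signals under 300 and were not tested.

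Mgp, which encodes matrix Gla protein, had the largest changes against control of the 9 genes on each of the 3 days. From day 5 to day 20, Tnc and Eln moved more than Mgp. From day 5 to day 60, Tnc (-3.16), Thbs1 (-2.22), Postn (-1.97) and Sparc (-1.93) moved more than Mgp (-1.66). Mgp read 1880.0, 2579, 1360.0, 1782 and 1836 in the controls, 21493, 34873, 15022 and 25119 on day 5, 48016, 54819, 60942, 47981 and 63263 on day 20 and 10840.5, 17084, 12398, 1789 and 4602 on day 60. The day 20 arrays lay above all of day 5, and day 5 above all controls; on day 60, arrays A, B, C and E stayed above every control and array D lay among them. The mean rose from 1887 ± 439 (SD, n = 5) to 24127 ± 8293 (n = 4) on day 5, 11.9-fold (log2 3.57 ± 0.44, limma adjusted p = 5.96e-06). On day 20 it reached 55004 ± 7100.1 (n = 5), a 28.1-fold rise (4.81 ± 0.41, adjusted p = 9.45e-08) that was the 4th largest of all genes tested. The difference between those days, 1.24 ± 0.44, did not pass (adjusted p = 0.109), although the arrays did not overlap. Without day 60 array D, the difference passed for Mgp (adjusted p = 0.0182).

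On day 60 Mgp averaged 9343 ± 6145 (SD, n = 5), 3.75-fold above control (log2 1.91 ± 0.41, limma adjusted p = 0.0326), the 2nd largest rise of all genes on that day. This call was a narrow one. It was lost when any 1 of control arrays A, C, D or E was left out (Mgp adjusted p = 0.0778, 0.0695, 0.0578 and 0.0780), without day 60 array A or B (0.0908 and 0.0524), without both day 20 arrays B and C (0.0523) and in a fit of only the control and day 60 arrays (0.189). From day 20 to day 60 Mgp fell 7.49-fold (adjusted p = 4.83e-05). The order of its levels was day 20 and day 5, then day 60, then control.

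Eln, the elastin gene, moved in opposite directions on day 5 and day 20. It read 3443, 2838, 4022, 4207 and 2139 in the controls, 2049, 1937, 2091 and 2601 on day 5, 6235, 7799, 7187, 6534 and 5089.9 on day 20 and 5479, 5182, 3443, 4076 and 3409 on day 60. Every day 20 array exceeded every control and every day 5 array, and day 5 overlapped only the lowest control, array E. On day 5 Eln was 1.48-fold lower (log2 -0.56 ± 0.19, limma adjusted p = 0.0281) and on day 20 1.98-fold higher (0.98 ± 0.18, adjusted p = 0.000397). The step from day 5 to day 20 was 1.55 ± 0.19 (2.93-fold, adjusted p = 0.000121), the 52nd largest rise of all genes between these days. Eln then fell by 0.61 to day 60 (adjusted p = 0.0200), where the change against control, 0.38 ± 0.18, did not pass (adjusted p = 0.316).

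On day 60 Eln was above its day 5 level by 0.94 ± 0.19 (adjusted p = 0.00138). The rises of Eln on day 20 against control, from day 5 to day 20 and from day 5 to day 60 passed with each single array left out, and its other calls did not. The day 5 fall was lost for Eln without control array A, C or D (adjusted p = 0.0554, 0.0710 and 0.0774) or day 5 array B, C or D (0.0651, 0.0778 and 0.0582). With the 3 prime to 5 prime signal ratio of Actb, a sign of RNA quality, as a covariate, the Eln change was -0.47 beside -0.56 without it, and did not pass (0.0802). That ratio averaged 7.10 in the controls, 4.82 on day 5, 4.48 on day 20 and 8.82 on day 60. The Eln fall from day 20 to day 60 was lost without day 20 array B (0.0599), day 60 array C (0.0519) or day 60 array E (0.0509), and without both day 20 arrays B and C (0.149).

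**Figure D3:**
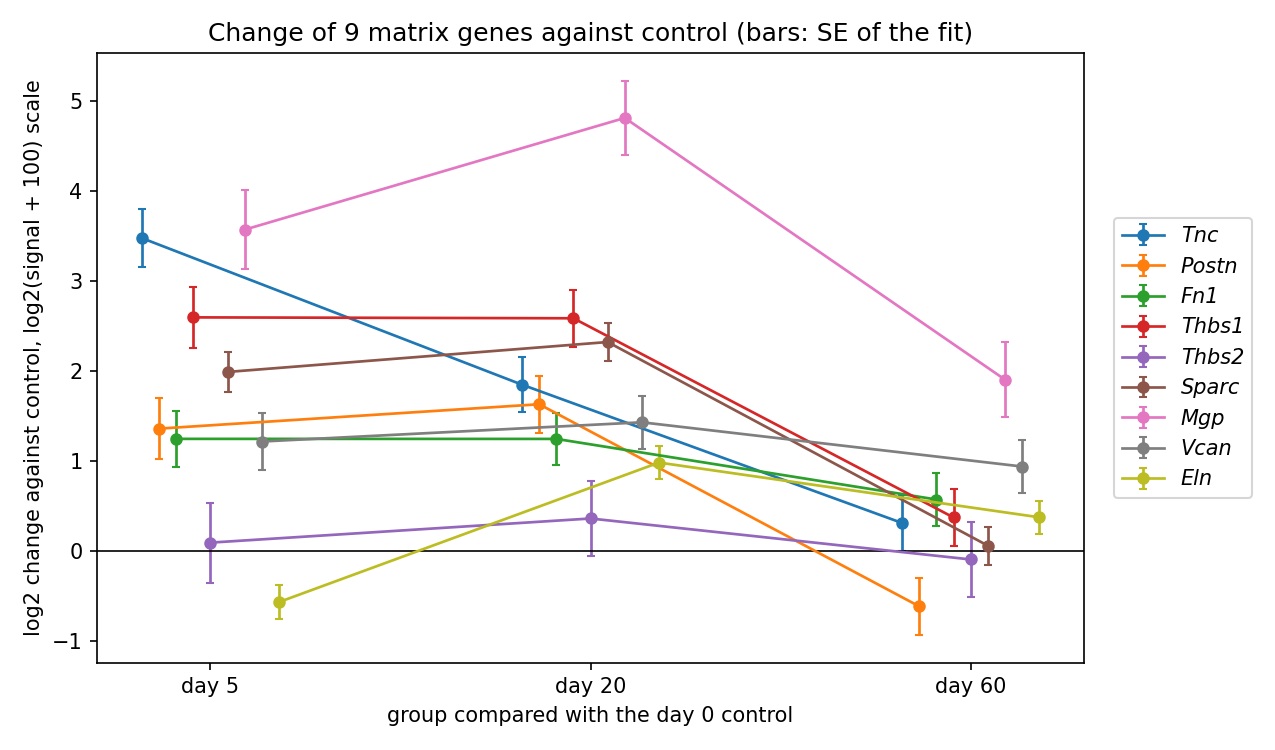
Change of each of the 9 genes against control on day 5, day 20 and day 60 (log2, on log2(signal + 100)), with points at the fitted change and bars of 1 SE. Tnc goes from 3.48 to 1.85 to 0.31 and Eln from -0.56 to 0.98 to 0.38, while Postn, Fn1, Thbs1, Sparc and Vcan did not pass between day 5 and day 20.

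In the day 20 group the same 2 arrays were high in most of the genes. Arrays B and C were the 2 highest of the 5 in 8 of the 9 genes, all but Mgp. Summed signals of 18 macrophage markers were 261483 and 233422 in these 2 arrays and 116364 to 174116 in the other 3. The 14 pericyte and smooth muscle markers summed to 399633 and 407676 there, within the range of the group. The same 2 arrays had the lowest skeletal muscle sums of the group, 290414 and 372028 against 521658 to 683811, and the lowest adipocyte sums, 159028 and 159759 against 174172 to 195493. Among the controls array B was highest in 6 of the 9 genes, and on day 60 array B was highest in 5 and array C lowest in 5. Day 60 array C also had the lowest macrophage sum of its group, 65223.6, and the highest skeletal muscle sum, 1070810. The part of these markers in the members' values was not tested.

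Markers of other cell types were counted in the same groups. Of all genes tested, 16.8% were higher and 17.5% lower on day 5, and 15.6% higher and 14.5% lower on day 20. On day 60 the shares were 0.368% and 0.765%. Counts of 1 or 2 in a list on day 5 or day 20 lay under these shares, except for cartilage and bone. Only 3 markers of that list were tested, with 1 lower on day 5 and 1 higher and 1 lower on day 20. Of 13 endothelial markers 12 were higher on day 5 and 13 on day 20, and their summed signal ran from 15475 to 23431 in controls, 65570 to 78186 on day 5, 53213 to 83447 on day 20 and 16966 to 31624 on day 60. Of 13 pericyte and smooth muscle markers tested, 7 were higher and 1 lower on day 5 and 11 higher and 1 lower on day 20 (Lmod1 the lower one on day 5, Des on day 20), with sums over all 14 of 102452 to 130670, 178940 to 234487, 343855 to 408036 and 95989 to 214292 in controls, day 5, day 20 and day 60. Of 16 macrophage markers tested 11 were higher and 1 lower on day 5 and 6 higher and 2 lower on day 20 and 1 higher on day 60, with sums over all 18 of 67219 to 141390, 253237 to 356196, 116364 to 261483 and 65224 to 280478. The lower ones were Cd14 on both days (log2 -0.82 and -0.91) and Cd163 on day 20 (-1.59). Of 11 resting fibroblast markers, 7 were lower and 1 higher on day 5 and 5 lower and 1 higher on day 20, with sums of 256944 to 354037, 108042 to 124860, 164429 to 236607 and 242355 to 417725. The higher ones were Cd34 on day 5 (log2 1.17) and Col14a1 on day 20 (1.05). Of these 4 lists, Itgam, Trem2, Cnn1, Tie1 and Icam2 had a group mean under 300 in at least 1 group. Mgp and Sparc are also known from cartilage and bone, whose markers summed to no more than 3371 over 10 genes in any array, with 8 or 9 of the 10 under 300 in each group. Of 8 adipocyte markers 7 were lower on day 5, 7 on day 20 and 2 on day 60, with sums of 210359 to 454085 in controls, 148230 to 160373 on day 5, 159028 to 195493 on day 20 and 117326 to 304709 on day 60. Of 10 skeletal muscle markers 5 were lower on day 5 and 1 on day 20. Their sums were 529902 to 885315 in controls, 176651 to 541672 on day 5, 290414 to 683811 on day 20 and 175827 to 1070810 on day 60. Of 10 epidermis markers 1 was lower on day 5 and 3 on day 20, with sums of 39758 to 105108 in controls, 25295 to 34900 on day 5, below every control, 6850 to 82847 on day 20 and 44903 to 105335 on day 60. The part of these cell types in the members' changes was not tested.

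The labelled flank tissue carried signal for skeletal muscle, fat and epidermis in the controls, where all 10 muscle, all 8 adipocyte and all 10 epidermis markers measured had group means of at least 300. Vegfa, the gene that the vector's name gives, read 66.5 to 467 in controls, 3927 to 9410.0 on day 5, 7128 to 13514 on day 20 and 219 to 1076 on day 60. Array medians lay between 406 and 569, and no array repeated another.

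The genes most like each member were found as the smallest root mean square difference of log2 values over the 19 arrays, after subtracting each gene's control mean. Fn1 and Vcan were the most alike of the 9 genes (0.36), followed by Thbs1 and Sparc (0.54). Outside the members, Tnc was nearest to Clca2 (0.48) and Cthrc1 (0.53), Postn to Eva1b (0.46) and Col15a1 (0.49), and Fn1 to Adcy7 and Rgs10 (both 0.28). Thbs1 was nearest to Col18a1 (0.38), which encodes the collagen that yields endostatin, and to Gpr176 (0.39). Sparc was nearest to Igfbp7 and Ppic (both 0.31), Vcan to Lyz1 (0.34) and Olfml2b (0.35), and Thbs2, by its main probe set, to Has2 (0.39) and Igf1 (0.41). Eln was nearest to Npas2 (0.26), whose log2 changes were -0.46, 0.90 and 0.60, and to Ecm2 (0.35). The genes nearest to Mgp, Esm1 and F2r, stood farther off, at 0.83 and 0.85. These values describe likeness over arrays that share their groups.

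The lists of related genes were tested on the same scale, where 16.8% of all genes were higher and 17.5% lower on day 5, and 15.6% higher and 14.5% lower on day 20. Among 17 other matricellular genes tested, 9 were higher and 4 lower than control on day 5, 8 higher and 1 lower on day 20, and none passed on day 60 (medians 0.95, 0.41 and 0.25, beside -0.07, -0.06 and 0.01 over all genes tested). Ccn4, of the CCN family of matricellular growth regulators, went from 292 ± 115 in the controls to 4349 ± 1347 on day 5 and 4197 ± 2149 on day 20, rises of 11.2-fold and 10.3-fold (limma adjusted p = 4.17e-07 and 3.00e-07). The control mean of Ccn4 lay under 300, so these folds rest on a low base. Ccn2, which encodes connective tissue growth factor, rose 6.82-fold on day 5 (adjusted p = 0.000462). Ccn3 reached 22326 ± 9618 on day 20 from 2258 ± 1089, a 9.65-fold rise (adjusted p = 2.81e-06). Falls were seen for Smoc2 (log2 -1.61, adjusted p = 6.37e-05) and Comp (-0.89, adjusted p = 0.00401), the cartilage thrombospondin, on day 5, and for Smoc1 (-0.84, adjusted p = 0.00317) on day 20.

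Of 14 elastic fibre genes, 6 were higher and 4 lower on day 5 and 5 higher and 3 lower on day 20, with none passing on day 60 (medians 0.15, 0.56 and 0.24); 3 of 14 lower on day 20 is near the 14.5% of all genes. Lox, the lysyl oxidase that crosslinks elastin and collagen, rose 4.52-fold on day 5 and 3.70-fold on day 20 (limma adjusted p = 1.27e-05 and 3.19e-05), so on day 5 it was higher while Eln itself was lower. Emilin1, a glycoprotein of the elastic fibre surface, went from 78.5 ± 96.7 in the controls to 731 ± 160 on day 5 and 823 ± 462 on day 20 (limma adjusted p = 0.000416 and 0.000279). Its control mean lay far under 300, so no fold is given. With a day 60 mean of 129, Emilin1 reached the mean of 300 needed for testing only through its day 5 and day 20 arrays. That filter favoured its calls as higher, which are among the counts above. Efemp1, which encodes fibulin-3, fell by 1.54 and 1.52 (adjusted p = 0.000493 and 0.000374), Ltbp3, a binder of latent TGF-beta, fell by 1.28 on day 5 (adjusted p = 0.000142), and Fbln1, the fibulin-1 gene, fell by 0.73 on day 20 (adjusted p = 0.0362).

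Of 15 hyaluronan and provisional matrix partners, 5 were higher and none lower on both day 5 and day 20, and none passed on day 60 (medians 0.64, 0.46 and 0.07). The largest rises were of 2 versican-cleaving proteases. The control mean of Adamts4 lay under 300, so its folds rest on a low base. Adamts4 went from 281 ± 147 to 4248 ± 414 on day 5 and 3715 ± 1004 on day 20 (12.4-fold and 10.6-fold, limma adjusted p = 7.82e-08 and 6.75e-08), and Adamts9 rose 4.07-fold and 3.41-fold (adjusted p = 3.10e-07 and 7.48e-07).

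Of 13 receptors for these proteins, 6 were higher and 1 lower on day 5, 8 higher and none lower on day 20, and none passed on day 60 (medians 0.16, 0.94 and 0.29). Itga5, whose product pairs with the integrin beta-1 chain as the classic fibronectin receptor, went from 124 ± 69 in the controls to 982 ± 177 on day 5 and 733 ± 231 on day 20 (limma adjusted p = 1.79e-06 and 8.58e-06), again with a control mean under 300 and no fold given. Its day 60 mean was 200, so Itga5 too reached the mean of 300 needed for testing only through its day 5 and day 20 arrays. That filter favoured its calls as higher, which are among the counts above. Itgb1, the beta-1 chain gene, went from 2345 ± 349 to 9416 ± 1046 on day 5, a 3.91-fold rise (adjusted p = 7.13e-08). Itga9, a tenascin-C receptor chain, rose 3.88-fold on day 20 (adjusted p = 6.54e-05), when Tnc had already fallen from its peak. Itgb5 was lower on day 5 (log2 -0.41, adjusted p = 0.0189).

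**Figure D4:**
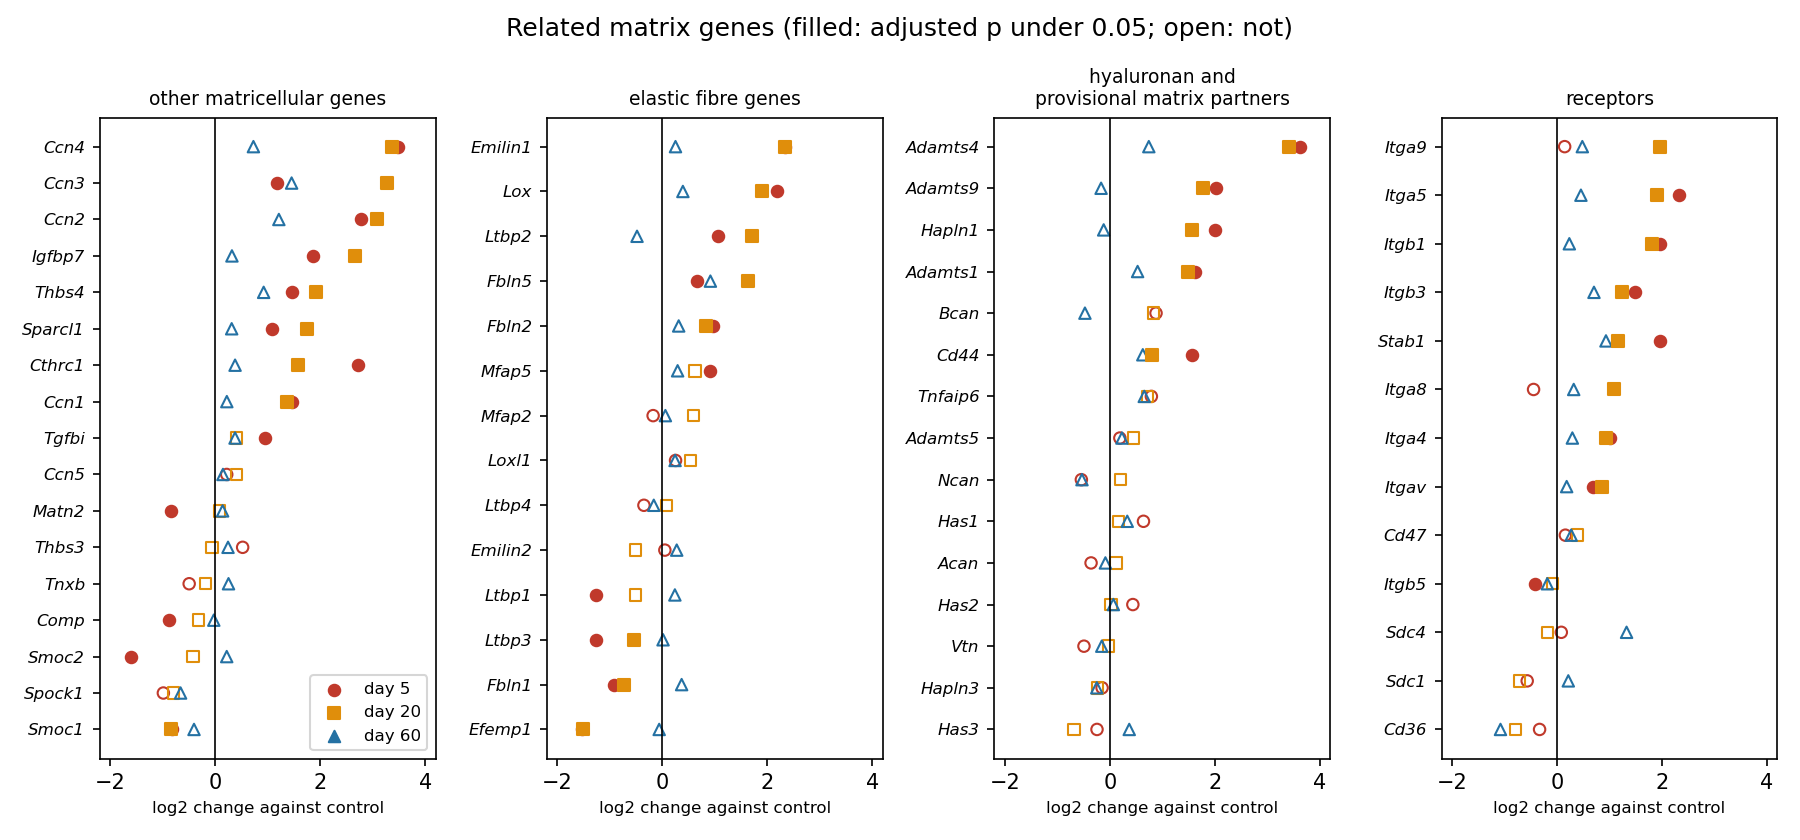
log2 change against control of 4 groups of related matrix genes on day 5 (circles), day 20 (squares) and day 60 (triangles), filled where limma's adjusted p is under 0.05. Adamts4, Ccn4 and Ccn3 lie farthest right, Smoc2 and Efemp1 farthest left, and all day 60 triangles are open.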

How the data were processed

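Of 20 arrays of mouse flank RNA, 19 were assigned to 4 groups by source name. The authors deposited linear intensity values (MAS5 signals), made with GCOS 1.3 and a scaling factor of 1500, per the labels' series text and the submitters' processing notes. They were not normalized further. The table held 45101 probe sets, of which 34958 had 1 gene symbol, 932 several and 9211 none in the annotation used. The probe set with the highest mean signal represented each gene, and tests covered the 13595 genes whose mean reached 300.

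A single limma 3.58.1 fit (R 4.3.3; lmFit, eBayes with trend) on log2(signal + 100) held all 19 arrays. Tests were two-sided, adjusted by Benjamini-Hochberg over all genes, with calls at an adjusted p under 0.05. The fit was tested on simulated data. The number of arrays limits the precision. All 9 measured members were named, and from each related list the 2 largest passing rises and falls per day. The members and lists were chosen with earlier results of these data known. Alternatives covered pseudocount, filter, normalization, probe set, covariates and arrays left out. Protein sequences and probe positions were not used here.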

Additional observations from a re-analysis of the deposited data

Results flagged for a closer look

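Differences between days after the vector, on the log2(signal + 100) scale with limma adjusted p over all genes tested, were found in 6 of the 9 genes. From day 5 to day 20 Tnc changed by -1.63 (0.00587) and Eln by 1.55 (0.000121), in opposite directions. From day 20 to day 60 the changes were -1.54 for Tnc (0.00126), -2.24 for Postn (4.31e-05), -2.21 for Thbs1 (5.06e-05), -2.26 for Sparc (3.88e-07), -2.90 for Mgp (4.83e-05) and -0.61 for Eln (0.0200). From day 5 to day 60 they were -3.16 for Tnc (1.33e-06), -1.97 for Postn (0.000289), -2.22 for Thbs1 (9.24e-05), -1.93 for Sparc (5.71e-06), -1.66 for Mgp (0.00908) and 0.94 for Eln (0.00138).

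The array titled as day 5 A but otherwise labelled as a control lay above all 5 controls in 7 of the 9 genes. In each of the 9 genes it lay within the range of day 5 arrays B to E. Its signals were 20946 for Tnc, 70157 for Postn, 31101 for Fn1, 5072 for Thbs1, 83889 for Sparc, 22969 for Mgp and 5119 for Vcan. The highest controls of these genes read 3198, 50853, 19435, 978, 32204, 2579 and 3093. Its Vegfa signal was 11111, beside 66.5 to 467 in the controls and 3927 to 9410.0 in day 5 arrays B to E. By Vegfa it thus lay far above every control.

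No single array stood apart from its group in a test of the gap at the end of the range (36 groups of 4 or 5 arrays tested, where chance gives about 1 in 20). The test looks for 1 array apart and can miss 2 arrays that are high together. Day 20 arrays B and C were the 2 highest of their group in 8 of the genes, so this result does not cover them.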

How the results depend on the processing

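For the 9 genes and 6 comparisons, 1884 values were recomputed under 35 alternatives, 19 of which left out 1 array. Of these, 1799 kept their direction and their side of the threshold, 31 calls were lost, 9 were gained, no called value changed sign, and 45 values that passed in neither setting did. Of 31 calls 23 were never lost. With the array of conflicting labels counted as day 5, no call of a member was lost or gained. With the array of conflicting labels counted as a control, limma lost 6 calls: Tnc on day 20 against control (adjusted p = 0.0980) and day 5 (0.150) and on day 60 against day 20 (0.0563), Eln on day 5 (0.0670), and Mgp on day 60 against control (0.425) and day 5 (0.0801). Mgp on day 60 was also lost with array weights (0.0781) and without day 20 arrays B and C (0.0523), which ended the day 60 against day 20 call of Eln too (0.149). In a fit of only both groups Mgp on day 60 against day 5 was lost (0.0566) and on day 20 against day 5 gained (0.00548). The mean of all Vcan probe sets passed on day 60 against day 20 (-1.12, adjusted p = 0.00223). Leaving out arrays B and C and the within-array probe set tests were chosen after seeing the data.

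Members higher on day 60 than control numbered 0 with array weights, with the conflicting array as a control, in a fit of only both groups and without day 20 arrays B and C, and 0 to 2 leaving out 1 array. Members higher on day 20 than day 5 numbered 2 in a fit of only both groups, 0 with second probe sets and 1 to 2 leaving out 1 array. Members lower on day 20 than day 5 numbered 0 with the conflicting array as a control or second probe sets. Members lower on day 5 than control numbered 0 with the Actb ratio as a covariate, the conflicting array as a control or second probe sets, and 0 to 1 leaving out 1 array. Members higher on day 60 than day 5 numbered 0 with second probe sets. Members without a second probe set kept their main one in that setting. The second probe set of Eln, 1420854_at, had a mean signal of 92.5 and was not tested. The Eln calls on day 5 against control, day 20 against day 5 and day 60 against day 5 were therefore absent there, not lost.

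Over all genes, day 60 against control gave 50 higher and 104 lower in the setting used, 0 and 0 with the conflicting array as a control, and 0 and 2 in a fit of only both groups. The labels do not say whether the letters of the titles pair samples. The correlation of deviations from group means had a median of 0.02 over 27 pairs of the same letter, and 11 exceeded 0.1. Over 108 pairs of different letters the median was -0.03, and 32 exceeded 0.1. The ranges of both kinds of pair overlapped, so these values do not decide whether letters pair samples. With the letter as a replicate block, day 5 against control gave 2154 higher and 2257 lower genes, and no call of a member was lost.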
